A study of Homo sapiens with 8 samples.

Results

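The proteasome is the protease complex that degrades proteins tagged with ubiquitin. Its 20S core is a stack of alpha and beta rings, with the proteolytic sites on 3 of the beta subunits, and 19S caps bind, unfold and feed in the substrates. Liver cells contain the constitutive core, and interferon is known to replace its catalytic subunits by inducible ones to form the immunoproteasome, which cuts peptides for class I presentation. The genes described here are the protein-coding genes named PSMA to PSMG followed by a number, which code for core subunits, cap subunits, activators, an inhibitor and assembly chaperones. There were 48 of them among 58735 genes, and 45 had at least 1 FPKM (a fragment count divided by the length of the gene and a size of the library) in at least 2 libraries, as did 14349 genes in all.

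The RNA-seq libraries came from HepaRG, a human hepatic progenitor line, in 3 groups. M14A printed cells (2 libraries) carry the genotype label FoxM1/HNF4A transfected, were mixed with a bioink called GP, and were frozen and ground 4 h after bioprinting. M14A plate cells (3 libraries) carry that label too and were grown in flasks, and HepaRG plate cells (3 libraries) are labelled WT and were grown the same way. M14A is described as a gene-edited HepaRG line, the labels do not say whether it is 1 clone, and no printed HepaRG cells are among these libraries. Nothing in the labels says that libraries of a group came from separate cultures, so a p-value here reflects only how far such libraries scatter, which may be technical scatter. Printing also came with a different way of collecting cells, and these cannot be told apart.

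Each library held 15632154 to 19148262 reads, recovered from the FPKM. HNF4A, a hepatocyte transcription factor named in the genotype label, had 17.1 and 13.6 FPKM in M14A printed cells, 37.9, 43.1 and 41.7 in M14A plate cells and 5.67, 6.24 and 6.50 in HepaRG plate cells. FOXM1, the other factor of that label, was at 13.0, 10.4 and 8.92 FPKM in M14A plate cells, against 12.9, 13.7 and 14.9 in HepaRG plate cells, and did not pass the test. Of 15 hepatocyte markers, 12 reached 1 FPKM in M14A printed cells, 12 in M14A plate cells and 10 in HepaRG plate cells, and the list summed to 1193 and 1305 FPKM in M14A printed cells, 759 to 1032 in M14A plate cells and 171 to 190.2 in HepaRG plate cells. M14A plate library 1 stood apart from the other 2 of its group, with correlations across genes of 0.957 and 0.948, where those 2 had 0.988 with each other. Mitochondrially encoded genes took 13.3 and 16.4% of reads in M14A printed cells, 8.21 to 9.72% in M14A plate cells and 6.91 to 7.25% in HepaRG plate cells.

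Across the family, proteasome genes were higher in M14A printed than in M14A plate cells on the deposited scale. Of 45 tested genes, 23 rose at an adjusted p below 0.05 (limma on log2(FPKM + 1), Benjamini-Hochberg adjustment over all genes), where 17.7% of all genes tested did so. On this scale the count that fell was 0 by limma, with 1 gene, PSMD5, at an unadjusted p below 0.05, where 15.5% of all genes fell. Voom weights on recovered reads also gave 0. That fit kept the median of all genes near the deposited one (0.03), so it does not test the scaling. The count that fell was 14 with library totals made equal and 7 when these totals left out mitochondrially encoded genes. It was 1 with quantile normalization and 0 with median-ratio scaling. On the deposited scale the median log2 fold change was 0.55 for the family and 0.01 for all genes tested. In 33 of the 45 genes both printed libraries lay above all 3 plate libraries, as they did in 26.9% of all genes. For 1 of the 33, PSMA2, the filter fixed this order, because only the printed libraries brought it to 1 FPKM. A higher share of cells expressing proteasome genes and more of their RNA per cell cannot be told apart in such bulk libraries.

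The size of this difference depended on how libraries were scaled. The deposited FPKM add up to 514152 and 499995 in M14A printed cells, against 350931, 278335 and 272290 in M14A plate cells. Set against these totals, all 48 genes made up 0.569 and 0.524% in M14A printed cells, 0.566, 0.549 and 0.552% in M14A plate cells and 0.578, 0.558 and 0.568% in HepaRG plate cells, so the printed libraries did not both lie above the plate ones in that share. Counted as reads, without division by gene length, the 48 genes took 0.664 and 0.640% in M14A printed cells, 0.576, 0.550 and 0.563% in M14A plate cells and 0.581, 0.555 and 0.575% in HepaRG plate cells, and by this measure both printed libraries lay above every plate library. With the totals made equal, the median of all genes moved to -0.51 and that of the family to -0.12, which leaves the family 0.40 above all genes on the log2 scale. On that scale 4 of the genes were higher (PSMB3, PSMB4, PSMB6 and PSME2) and 14 lower, against 3.45% and 46.1% of all genes. Changes are therefore given on the deposited scale, relative to the bulk of genes, and called genes whose direction turned with equal totals are named as such.

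**Figure D1:**
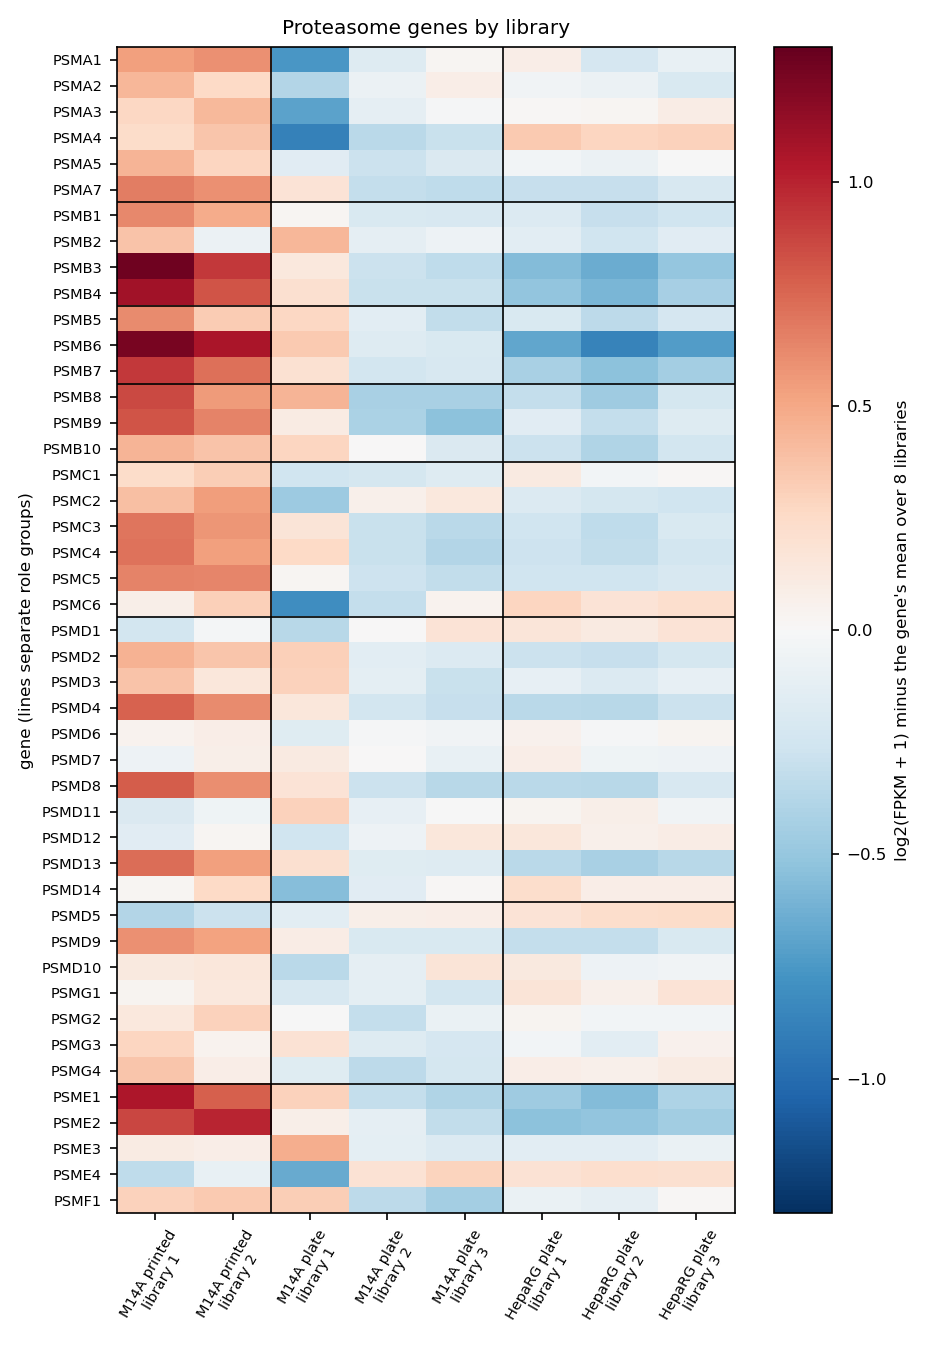
Each row is 1 of the 45 tested proteasome genes and each column 1 library, with colour giving log2(FPKM + 1) minus the gene's mean over the 8 libraries. Lines separate the role groups. The left 2 columns, M14A printed cells, are red for most core and ATPase genes, and M14A plate library 1 differs from the other 2 libraries of its group in many rows.

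Among the 7 alpha ring genes, whose products form the gate of the core, 6 were tested and 5 rose in M14A printed cells. Of all genes tested, 17.7% rose. PSMA1 had 11.2 and 11.7 FPKM in M14A printed cells, against 4.00, 6.53 and 7.59 in M14A plate cells. Its log2 fold change was 0.86 (SE 0.22, limma adjusted p = 0.019). PSMA7, the most abundant of the alpha genes, had 232 and 221 FPKM in M14A printed cells, against 165, 118 and 116 in M14A plate cells. The groups did not overlap for either gene, and PSMA7 had a log2 fold change of 0.79 (SE 0.17, limma adjusted p = 0.010). Under quantile normalization that of PSMA7 was -0.02. PSMA3 and PSMA5 also rose, with log2 fold changes of 0.62 and 0.57, and both were negative with equal totals, at -0.11 and -0.16. PSMA2 reached 1 FPKM only in the printed libraries, at 1.44 and 1.18, against 0.399, 0.720 and 0.924 in M14A plate cells, and did not pass the test (limma adjusted p = 0.054). Reads of PSMA1, PSMA2 and PSMA6 are uncertain, because 88.6, 97.1 and 70.4% of their annotated coding bases also lie in exons of other genes.

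PSMA4, another alpha ring gene (ENSG00000041357, GRCh38 chromosome 15, 78540405 to 78552419), was called in both comparisons. It had 21.9 and 23.8 FPKM in M14A printed cells, 9.52, 14.2 and 14.9 in M14A plate cells and 23.6, 22.5 and 22.9 in HepaRG plate cells. All 3 M14A plate libraries thus lay below every other library. The log2 fold change was 0.80 (SE 0.19, limma adjusted p = 0.012) for M14A printed minus M14A plate cells and -0.81 (SE 0.17, limma adjusted p = 0.0068) for M14A plate minus HepaRG plate cells. Both values use the same M14A plate libraries, so they are not independent.

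The structural beta ring genes, which line the core without cutting, held the family's largest rise. PSMB3 (ENSG00000277791, chromosome 17, 38752736 to 38764231) had 272 and 213 FPKM in M14A printed cells, a mean of 243 ± 41.3 (SD, n = 2), against 124, 92.5 and 89.1 in M14A plate cells, a mean of 102 ± 19.3 (SD, n = 3). The lowest printed library was well above the highest plate library, and the log2 fold change was 1.25 (SE 0.18, limma adjusted p = 0.0019), or 2.38-fold. PSMB4 had 311 and 258 FPKM in M14A printed cells, against 168, 119 and 119 in M14A plate cells, with a log2 fold change of 1.08 (SE 0.18, limma adjusted p = 0.0035). PSMB1 had 106 and 96.8 FPKM in M14A printed cells, against 69.9, 59.9 and 59.5 in M14A plate cells, and also rose, with a log2 fold change of 0.68, though it was -0.07 with equal totals. PSMB2 was the exception among the 4 structural genes. It had 48.4 and 35.3 FPKM in M14A printed cells, against 50.7, 34.1 and 35.4 in M14A plate cells, with overlapping groups and a 95% interval of the log2 fold change from -0.40 to 0.54.

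The 3 constitutive catalytic subunits are PSMB6 (beta1, caspase-like), PSMB7 (beta2, trypsin-like) and PSMB5 (beta5, chymotrypsin-like). PSMB6 (ENSG00000142507, chromosome 17, 4796144 to 4798503) had 136 and 121 FPKM in M14A printed cells, 72.5, 50.9 and 49.9 in M14A plate cells and 35.5, 30.9 and 34.2 in HepaRG plate cells. The 3 groups did not overlap. It rose in M14A printed relative to M14A plate cells, with a log2 fold change of 1.15 (SE 0.19, limma adjusted p = 0.0027). PSMB7 had 196 and 171 FPKM in M14A printed cells, against 119, 87.3 and 89.1 in M14A plate cells, a log2 fold change of 0.90 (SE 0.17, limma adjusted p = 0.0049). For PSMB5 the values were 151 and 124 FPKM in M14A printed cells, against 119, 89.2 and 78.9 in M14A plate cells. These groups did not overlap either, but at a log2 fold change of 0.54 (SE 0.19) PSMB5 did not pass the test (limma adjusted p = 0.060).

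Of the 3 inducible catalytic subunits, PSMB9 and PSMB8 rose in M14A printed cells. PSMB9 (beta1i) had 21.3 and 18.8 FPKM in M14A printed cells, against 12.6, 8.48 and 7.76 in M14A plate cells, a log2 fold change of 1.01 (SE 0.19, limma adjusted p = 0.0056). PSMB8 (beta5i) had 53.4 and 42.9 FPKM in M14A printed cells, against 39.7, 21.5 and 21.3 in M14A plate cells, a log2 fold change of 0.84 (SE 0.26, limma adjusted p = 0.039). PSMB10 (beta2i), the least abundant of the 3, had 9.03 and 8.55 FPKM in M14A printed cells, against 7.97, 6.41 and 5.48 in M14A plate cells, and was not called (log2 fold change 0.37, limma adjusted p = 0.098). None of these 3 pairs of groups overlapped. PSMB8 and PSMB9 are neighbours on chromosome 6 in the class I region, and PSMB8 shares exon bases with PSMB9 and with the antisense gene PSMB8-AS1. PSMB8-AS1 had 0.843 and 0.601 FPKM in M14A printed cells, against 0.770, 0.814 and 0.677 in M14A plate cells. For PSMB10, 58.3% of coding bases also lie in another gene.

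**Figure D2:**
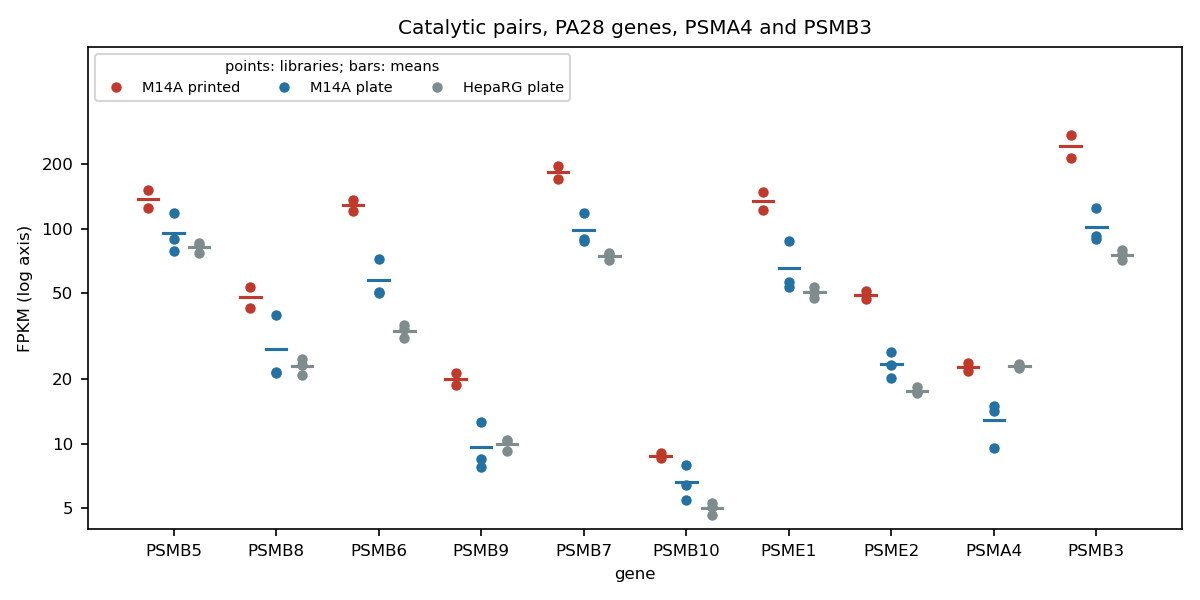
FPKM on a log axis for each constitutive catalytic subunit beside its inducible counterpart, the PA28 genes, PSMA4 and PSMB3, as deposited. Points are libraries and bars are group means, with M14A printed cells (n = 2) left of M14A plate cells (n = 3) and HepaRG plate cells (n = 3). PSMB6 forms 3 separate levels, and PSMA4 is lowest in M14A plate cells.

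A share within a library does not depend on how the library was scaled. PSMB9 made up 13.6 and 13.5% of the FPKM of PSMB9 and PSMB6 together in M14A printed cells, 14.8, 14.3 and 13.4% in M14A plate cells and 22.7, 23.0 and 23.0% in HepaRG plate cells. The M14A plate share was 8.73 percentage points below the HepaRG plate share, a mean of 14.2 ± 0.671% against 22.9 ± 0.162% (SD, n = 3 each). An exact two-sided permutation test gave p = 0.1, the smallest that 3 against 3 libraries allow. PSMB9 itself had 12.6, 8.48 and 7.76 FPKM in M14A plate cells, against 10.4, 9.22 and 10.2 in HepaRG plate cells, and the groups overlapped through M14A plate library 1. It was not called on the deposited scale (log2 fold change -0.07) and was called lower with GC and length trends removed (-0.28, limma adjusted p = 0.032), while PSMB6 was called higher. The PSMB8 share of PSMB8 and PSMB5 was 26.1 and 25.7% in M14A printed cells, 25.04, 19.4 and 21.3% in M14A plate cells and 21.2, 21.2 and 22.6% in HepaRG plate cells. Printed cells lay 3.96 percentage points above M14A plate cells, and the exact permutation test gave p = 0.2, the smallest possible with 2 against 3. PSMB10 was 4.40 and 4.77% of PSMB10 and PSMB7 together in M14A printed cells, against 6.29, 6.84 and 5.80% in M14A plate cells, a difference of -1.72 percentage points (exact permutation p = 0.2). With -0.652 percentage points for PSMB9, the 3 differences between M14A printed and M14A plate cells did not share a sign.

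Leukocytes carry inducible subunits as a rule, so their markers stand beside these values. Of 12 leukocyte markers, 2 reached 1 FPKM in any library, LAPTM5 and CD14, and the list summed to 10.5 to 12.3 FPKM in M14A printed cells, 6.85 to 11.1 in M14A plate cells and 2.90 to 3.42 in HepaRG plate cells. PTPRC, which marks leukocytes at large, was at or below 0.0208 FPKM in every library. Fibroblast and stellate markers, 5 of 8 of which reached 1 FPKM in some library, summed to 84.3 and 92.7 FPKM in M14A printed cells, 40.6 to 68.8 in M14A plate cells and 19.8 to 21.5 in HepaRG plate cells. Yet 3 of the 8 reached 1 FPKM in M14A printed cells, 4 in M14A plate cells and 5 in HepaRG plate cells. DCN, LUM and ACTA2 made up most of each sum, while COL1A1, COL3A1 and PDGFRB were highest in HepaRG plate cells. The part of leukocyte and fibroblast markers in the result was not tested.

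In the 19S cap, 4 of the 6 ATPase genes rose in M14A printed cells and 3 of the 11 other subunits did. The share of all genes tested that rose was 17.7%. PSMC5 had 57.7 and 57.6 FPKM in M14A printed cells, against 37.5, 30.2 and 29.3 in M14A plate cells, a log2 fold change of 0.82 (SE 0.14, limma adjusted p = 0.0038). PSMC3 and PSMC4, which belong to the same ATPase ring, had log2 fold changes of 0.79 and 0.76, and PSMC1 rose by 0.50 but was at -0.17 with equal totals. Exons of PSMC1 share 75.8% of their bases with NRDE2, so its value is uncertain. PSMC2 and PSMC6 did not pass the test, although their groups did not overlap, at 0.56 and 0.55.

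Among the non-ATPase subunits the values split. PSMD8, a lid subunit, had 102 and 89.8 FPKM in M14A printed cells, against 66.8, 48.2 and 45.5 in M14A plate cells, a log2 fold change of 0.85 (SE 0.18, limma adjusted p = 0.0092). PSMD4, a receptor for ubiquitin chains, had 104 and 93.5 FPKM in M14A printed cells, against 67.1, 51.3 and 49.1 in M14A plate cells, a log2 fold change of 0.82 (SE 0.16, limma adjusted p = 0.0064). PSMD13, in the lid, had a log2 fold change of 0.67 (limma adjusted p = 0.013), and of -0.08 with equal totals. In contrast PSMD1, a large scaffold of the base, had 22.2 and 25.9 FPKM in M14A printed cells, against 20.4, 26.6 and 29.9 in M14A plate cells. Its groups overlapped and the log2 fold change was -0.07, with a 95% interval from -0.47 to 0.32. The lid genes PSMD7, PSMD11 and PSMD12 had -0.01, -0.18 and -0.00 and likewise overlapped. PSMD2, the other large scaffold of the base, had 125 and 117 FPKM in M14A printed cells, against 113, 83.0 and 80.7 in M14A plate cells. PSMD6, of the lid, had 10.4 and 10.7 FPKM in M14A printed cells, against 8.90, 9.94 and 9.70 in M14A plate cells. Both had groups that did not overlap but were not called, at log2 fold changes of 0.40 and 0.13, and the lid gene PSMD3 was not called either, at 0.30 with overlapping groups. PSMD14, the deubiquitinase of the lid, had 12.4 and 14.8 FPKM in M14A printed cells, against 7.999, 10.9 and 12.3 in M14A plate cells, with a log2 fold change of 0.37 that did not pass the test. The group median was 0.30, against 0.66 for the ATPases, 0.71 for the alpha ring (PSMA2 included) and 0.88 for the structural beta ring. Whether these role groups differ from each other was not tested.

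**Figure D3:**
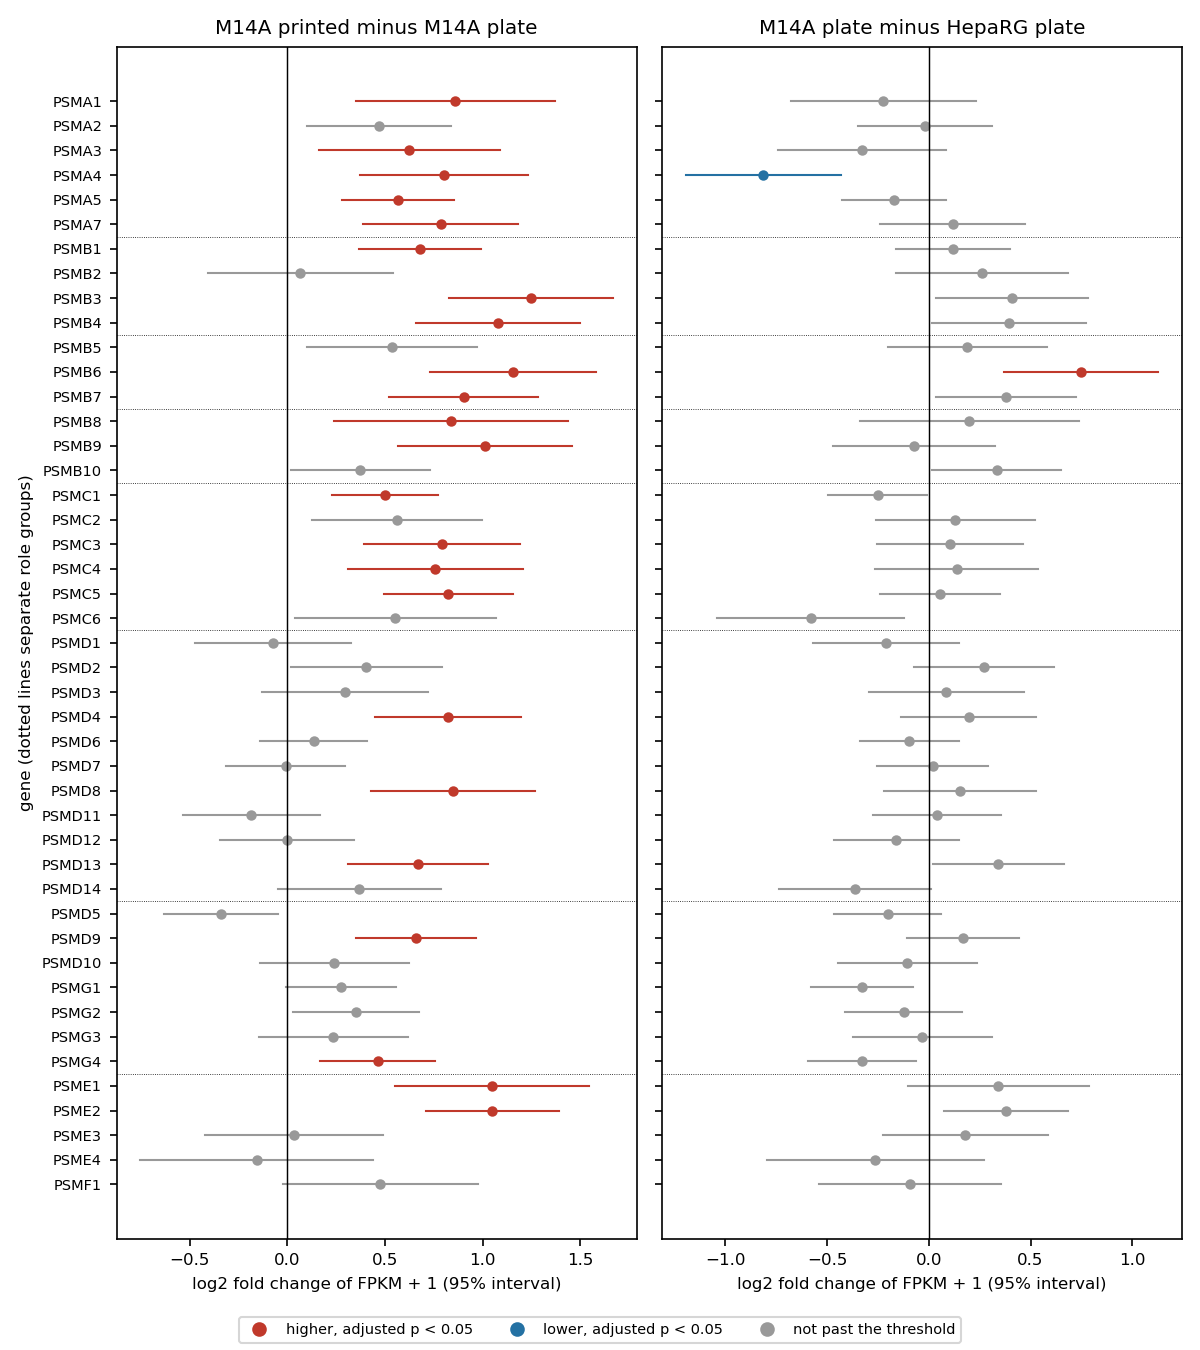
Log2 fold changes of FPKM + 1 with 95% intervals for the 45 tested genes, M14A printed minus M14A plate cells on the left and M14A plate minus HepaRG plate cells on the right, on the deposited scale. In the left panel 23 genes are red (higher) and in the right panel 1 is red and 1 blue (lower). With equal FPKM totals the left panel would have 4 higher and 14 lower.

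Of the 5 activator and inhibitor genes, 2 rose in M14A printed cells, against 17.7% of all genes. PSME1 and PSME2, which form the interferon-inducible PA28 activator, were the 2 that rose. PSME1 had 147 and 121 FPKM in M14A printed cells, against 87.4, 56.7 and 53.4 in M14A plate cells, a log2 fold change of 1.05 (SE 0.22, limma adjusted p = 0.0078). PSME2 (ENSG00000100911, chromosome 14) had 47.0 and 51.3 FPKM in M14A printed cells, against 26.7, 23.2 and 20.1 in M14A plate cells, a log2 fold change of 1.05 (SE 0.15, limma adjusted p = 0.0017). Neither pair of groups overlapped. PSME3, the nuclear PA28 gamma, had 48.6 and 47.9 FPKM in M14A printed cells, against 63.2, 41.3 and 39.9 in M14A plate cells. PSME4, the nuclear activator PA200, had 7.06 and 8.50 FPKM in M14A printed cells, against 5.43, 10.6 and 11.4 in M14A plate cells. PSMF1, the inhibitor PI31, had 34.6 and 35.6 FPKM in M14A printed cells, against 34.9, 21.8 and 20.2 in M14A plate cells. In all 3 the groups overlapped, and the log2 fold changes were 0.03, -0.16 and 0.48.

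Of the 7 assembly chaperones 2 rose, against 17.7% of all genes. PSMD9, a chaperone of the base, had 3.22 and 3.02 FPKM in M14A printed cells, against 1.98, 1.44 and 1.44 in M14A plate cells, a log2 fold change of 0.66 (SE 0.13, limma adjusted p = 0.0072), and 58.7% of its coding bases lie in exons of other genes, so its value is uncertain. PSMG4, which assists alpha ring assembly, had 3.35 and 2.60 FPKM in M14A printed cells, against 2.05, 1.68 and 1.90 in M14A plate cells, a log2 fold change of 0.46 (limma adjusted p = 0.025) that was -0.07 with equal totals. PSMD5, also a chaperone of the base, was the 1 gene with both printed libraries below all plate libraries, at 6.204 and 6.72 FPKM in M14A printed cells, against 7.53, 8.91 and 8.98 in M14A plate cells. Such a pattern held in 24.4% of all genes, and PSMD5 was not called (log2 fold change -0.34, limma adjusted p = 0.072). PSMD10, PSMG1, PSMG2 and PSMG3 had log2 fold changes between 0.23 and 0.35 and did not pass.

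The remaining 3 genes, tissue-restricted or low, were not tested. PSMB11, the thymic beta5t, was listed at 0 in every library. PSMA8, the alpha subunit of testis, was at 0.0230 FPKM in HepaRG plate library 2 and listed at 0 in the other libraries. PSMA6, an alpha ring gene, was listed at 1.13 and 0.919 FPKM in M14A printed cells, 0.750, 0.976 and 0.828 in M14A plate cells and 0.882, 0.936 and 0.976 in HepaRG plate cells. Apart from PSMA2, the other alpha ring genes were listed far above these levels.

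The promoters of PSMB3, PSMB4 and PSME2 are shown because these genes had large rises in M14A printed cells, and that of PSMA4 because it was called in both comparisons. Only windows with a match to a motif named below could be shown, so every printed window holds a match by this choice. PSMB6 had a large rise and 2 calls too, and its window is not used here. RefSeq windows (GRCh38.p14) run from 250 bases before to 50 after an annotated start. Capitals mark matches on either strand to TGACNNNGC (the antioxidant response element core that NFE2L1 and NFE2L2 are known to bind), to GAAA and GAAA 2 bases apart (the core of the interferon-stimulated response element) and to CCAAT. The windows are chr15:78540536-78540835 on the plus strand for PSMA4 (1 of 3 annotated windows), chr17:38752491-38752790 on the plus strand for PSMB3, chr1:151399323-151399622 on the plus strand for PSMB4 and chr14:24146561-24146860 on the minus strand for PSME2.
PSMA4: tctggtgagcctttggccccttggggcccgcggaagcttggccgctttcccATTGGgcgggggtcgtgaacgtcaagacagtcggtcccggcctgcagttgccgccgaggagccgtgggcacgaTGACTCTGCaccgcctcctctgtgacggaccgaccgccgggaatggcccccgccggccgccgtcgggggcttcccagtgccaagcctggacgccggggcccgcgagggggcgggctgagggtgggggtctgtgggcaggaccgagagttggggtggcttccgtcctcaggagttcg
PSMB3: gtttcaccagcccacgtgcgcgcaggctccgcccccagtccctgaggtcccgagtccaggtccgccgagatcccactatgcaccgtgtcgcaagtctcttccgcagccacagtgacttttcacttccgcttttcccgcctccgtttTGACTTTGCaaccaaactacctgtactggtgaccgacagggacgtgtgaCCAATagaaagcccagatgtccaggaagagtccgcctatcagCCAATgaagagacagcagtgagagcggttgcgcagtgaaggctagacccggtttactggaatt
PSMB4: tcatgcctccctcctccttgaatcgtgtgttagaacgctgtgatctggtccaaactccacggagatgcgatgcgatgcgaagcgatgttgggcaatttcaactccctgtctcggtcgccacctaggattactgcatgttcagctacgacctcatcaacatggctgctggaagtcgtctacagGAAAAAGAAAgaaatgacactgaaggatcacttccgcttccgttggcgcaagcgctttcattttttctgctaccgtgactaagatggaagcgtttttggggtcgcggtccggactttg
PSME2: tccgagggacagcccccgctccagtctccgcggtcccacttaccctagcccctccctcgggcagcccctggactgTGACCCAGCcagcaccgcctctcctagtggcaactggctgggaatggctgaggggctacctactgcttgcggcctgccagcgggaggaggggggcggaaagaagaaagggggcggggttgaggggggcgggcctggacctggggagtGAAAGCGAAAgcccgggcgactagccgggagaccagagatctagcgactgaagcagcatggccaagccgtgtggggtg

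The PSMB3 window holds an antioxidant core at position -104 from the start and CCAAT at -55 and -13. PSMA4 has CCAAT on the opposite strand at -199 and an antioxidant core at -126. It also counts among the genes with an interferon core, through a window not shown. PSMB4 has an interferon core at -68, and PSME2 an antioxidant core at -175 and an interferon core at -28. Of the 48 genes, 42 matched the RefSeq table, with 51 windows. The antioxidant core was in 15 of the 51 windows, or 29.4%, and in 13.3% of all 35116 windows. The interferon core was in 7 windows, or 13.7%, against 3.57% of all windows, and CCAAT in 20 windows, or 39.2%, against 34.6%. Matches of this kind are letters in a window and say nothing of binding in these cells.

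Few proteasome genes were called between M14A plate and HepaRG plate cells. Of the 45 genes 1 rose, PSMB6, and 1 fell, PSMA4, where 16.1% of all genes rose and 14.7% fell. The family's median log2 fold change was 0.06 and that of all genes -0.04, and with equal totals they were -0.11 and -0.20. PSMB6 had a log2 fold change of 0.75 (SE 0.17, limma adjusted p = 0.0097), a mean of 57.8 ± 12.8 FPKM in M14A plate cells and 33.5 ± 2.37 in HepaRG plate cells (SD, n = 3 each). Groups did not overlap in 10 genes with M14A plate cells higher and in 9 with them lower, where 25.7% and 27.4% of all genes had such a pattern. Both calls held under each of the 25 alternative settings. Among those that did not pass, PSMB3, PSMB4, PSMB7 and PSME2 had log2 fold changes of 0.41, 0.39, 0.38 and 0.38, while PSMC6 stood at -0.58 and PSMG1 and PSMG4 at -0.33 each. Without M14A plate library 1 the counts were 3 higher (PSMB6, PSMC2 and PSME2) and 5 lower (PSMA4, PSMC1, PSMF1, PSMG1 and PSMG4), and all genes went to 20.3% and 22.4%.

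Within the family the values went with gene length and GC content. Over the 45 genes the log2 fold change had a Pearson correlation of -0.50 with log2 gene length for M14A printed minus M14A plate cells and of -0.57 for M14A plate minus HepaRG plate cells, against -0.16 and -0.05 over all genes tested. The same correlations with GC content were 0.37 and 0.60 for the 45 genes, against -0.0824 and 0.17 over all genes. These points share libraries and the lengths that enter FPKM. In M14A printed cells 15 of the 23 genes up to 3547 bp rose, where 28.4% of all genes that short did, and 8 of the 22 longer genes rose, where 9.80% of all longer genes did. Median log2 fold changes were 0.79 for the shorter and 0.43 for the longer proteasome genes, and 0.22 and -0.10 for all genes of those lengths. With each library's trend on length and GC content removed, 29 rose and 1, PSMD5, fell, and the calls over all genes went up to 24.4% and 20.5%.

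**Figure D4:**
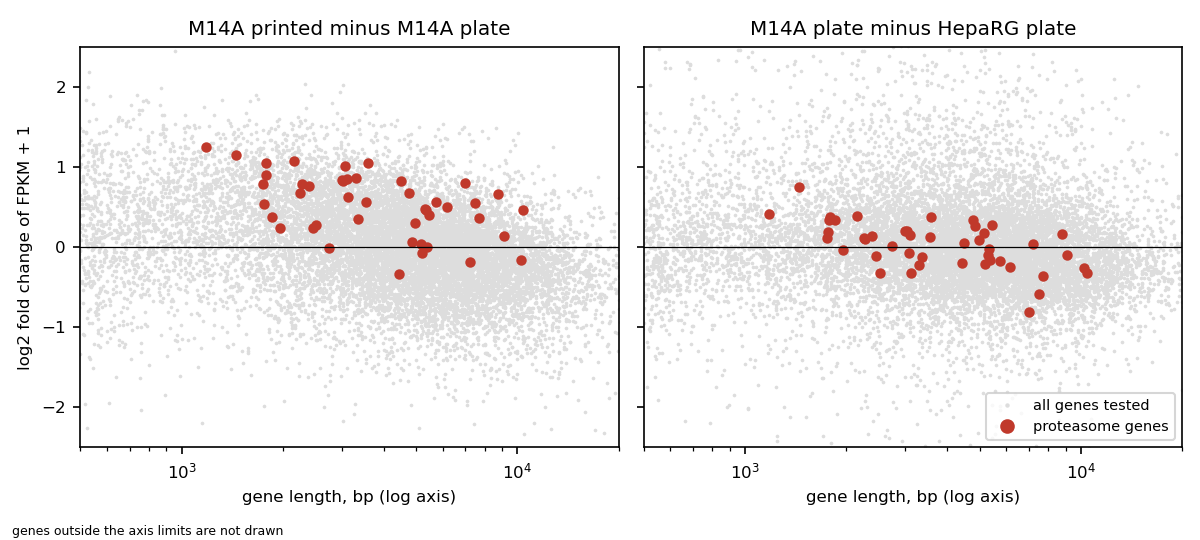
Log2 fold change of FPKM + 1 against gene length on a log axis, for M14A printed minus M14A plate cells (left) and M14A plate minus HepaRG plate cells (right), on the deposited scale. Red points are the 45 proteasome genes and grey points all genes tested. The shortest proteasome genes, PSMB3 and PSMB6, are among the highest in both panels, and the proteasome genes above 3547 bp have a median of 0.43 on the left.

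PSMB3, PSMB6 and PSME2 kept their rise in M14A printed cells in all 25 alternatives. Leaving out M14A printed library 1 leaves 1 printed library, and fewer proteasome genes then passed the test than with both. The family's median log2 fold change was then 0.54, against 0.01 for all genes tested. Leaving out M14A plate library 1 gave 34 higher and 2 lower (PSMD5 and PSME4), with 28.2% of all genes called higher and 26.9% lower.

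**Figure D5:**
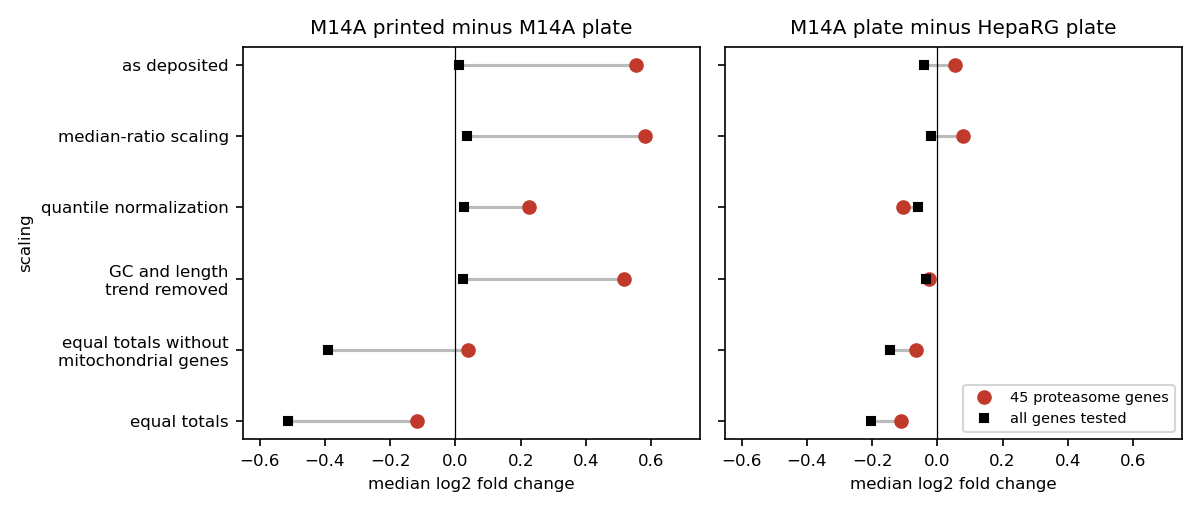
Median log2 fold change of the 45 proteasome genes (red circles) and of all genes tested (black squares) under 6 scalings, M14A printed minus M14A plate cells on the left and M14A plate minus HepaRG plate cells on the right. On the left the circle lies right of the square under each of these scalings, and both lie below 0 with equal totals, at -0.12 and -0.51.

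Genes that act with the proteasome were counted next. Of 14 subunits and partners named outside the PSM series, 3 rose in M14A printed cells, against 17.7% of all genes. ZFAND2A, a proteasome-associated protein known to be induced by arsenite, had 14.1 and 10.8 FPKM in M14A printed cells, against 4.499, 3.86 and 3.92 in M14A plate cells, a log2 fold change of 1.39 (limma adjusted p = 7.2e-04). POMP, the chaperone on which the beta ring is built, had 160 and 173 FPKM in M14A printed cells, against 64.9, 82.3 and 81.1 in M14A plate cells, a log2 fold change of 1.12 (limma adjusted p = 0.0015). SEM1, the smallest lid subunit, had a log2 fold change of 1.02. In M14A plate relative to HepaRG plate cells, ECPAS, which tethers cap and core, fell with ZFAND5 and TXNL1, at log2 fold changes of -0.59, -0.38 and -0.34.

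In the list of 11 genes that control proteasome gene transcription, 3 fell in M14A printed cells, against 15.5% of all genes. MAFG, a small partner of NFE2L1 and NFE2L2, had 9.60 and 7.47 FPKM in M14A printed cells, against 21.6, 18.3 and 16.4 in M14A plate cells, a log2 fold change of -1.05 (limma adjusted p = 0.0022). SYVN1, a ubiquitin ligase of the endoplasmic reticulum, and MAFK, a further small partner, had -0.65 and -0.60. NFE2L1, which is known to raise proteasome genes when the proteasome is inhibited, had 69.2 and 78.8 FPKM in M14A printed cells, 123, 102 and 87.7 in M14A plate cells and 69.2, 73.0 and 72.8 in HepaRG plate cells. It rose in M14A plate relative to HepaRG plate cells (log2 fold change 0.52, limma adjusted p = 0.028) and did not pass the test in M14A printed cells (-0.48, limma adjusted p = 0.055). NFE2L2 had 5.65 and 5.92 FPKM in M14A printed cells, 4.40, 8.86 and 9.20 in M14A plate cells and 13.96, 11.9 and 13.0 in HepaRG plate cells. It fell in M14A plate relative to HepaRG plate cells (log2 fold change -0.77, limma adjusted p = 0.035), as did MAFG and MAFK, at -0.51 and -0.53. These are transcript levels, and NFE2L1 and NFE2L2 are known to be set mainly at the protein level.

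Of 20 genes for ubiquitin and its shuttling, 5 rose and 1 fell in M14A printed cells, against 17.7% and 15.5% of all genes. RPS27A, which codes for ubiquitin fused to a ribosomal protein, had 379 and 361 FPKM in M14A printed cells, against 120, 128 and 136 in M14A plate cells. The groups lay far apart, with a log2 fold change of 1.52. UBQLN2, a shuttle that carries tagged proteins to the proteasome, fell to 4.65 and 5.10 FPKM in M14A printed cells, against 13.7, 11.9 and 10.7 in M14A plate cells, a log2 fold change of -1.15 (limma adjusted p = 9.8e-04).

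On the class I route that uses proteasome products, 2 of 19 tested genes rose and 2 fell in M14A printed cells, shares no higher than the 17.7% and 15.5% of all genes. B2M, the light chain of class I molecules, had 250 and 251 FPKM in M14A printed cells, against 89.8, 94.8 and 105 in M14A plate cells, a log2 fold change of 1.37 (limma adjusted p = 5.6e-04). PDIA3, a chaperone of peptide loading, had 0.53, and -0.23 with equal totals, and the interferon factor IRF2 had -0.47. In M14A plate relative to HepaRG plate cells 6 rose and 1 fell, against 16.1% and 14.7% of all genes. TAP1, which carries peptides into the endoplasmic reticulum and lies next to PSMB9, had 56.8, 34.2 and 31.8 FPKM in M14A plate cells, against 19.5, 19.2 and 19.5 in HepaRG plate cells, a log2 fold change of 0.99 (limma adjusted p = 0.0074). CALR, a loading chaperone, had 0.93. NLRC5, the transactivator of class I genes, fell to 2.22, 1.23 and 1.28 FPKM in M14A plate cells, against 3.31, 3.76 and 3.74 in HepaRG plate cells (log2 fold change -0.86).

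Autophagy, the other main route of protein breakdown, gave 5 genes higher and 2 lower of 15 in M14A printed cells, where 17.7% and 15.5% of all genes were called. Of the 5, all but GABARAPL2 were negative with equal totals (CALCOCO2 -0.0758, GABARAPL1 -0.0631, MAP1LC3B -0.17 and OPTN -0.16). ULK1, the kinase that starts autophagosome formation, had 3.96 and 2.31 FPKM in M14A printed cells, 7.01, 6.59 and 6.06 in M14A plate cells and 13.0, 12.9 and 12.5 in HepaRG plate cells. It fell in both comparisons, with log2 fold changes of -0.90 and -0.87, which share the M14A plate libraries. GABARAPL2, which joins the autophagosome membrane, rose by 0.75 in M14A printed cells, and the receptor CALCOCO2 by 0.64. In M14A plate relative to HepaRG plate cells GABARAPL1 and the receptor OPTN rose, by 0.51 and 0.38.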

How the data were processed

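TRIzol RNA was made into libraries with an NEBNext Ultra kit, per the labels' protocols. The submitters' processing notes name the aligner HISAT2 (version 2.0.5) and the counter featureCounts (version 1.5.0-p3). Not given in the sources used here: strand setting, RNA selection and genome build. The authors deposited FPKM in 1 table, beside gene lengths. Coordinates of all 58735 genes equal those of GENCODE 29 on GRCh38, and the lengths are unions of annotated exons. FPKM times length gave whole reads within 0.01, and hence depth. Intervals are at 95%.

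The 14349 genes that reached 1 FPKM in 2 or more libraries were tested as log2(FPKM + 1), a scale that understates changes of low genes, with limma 3.58.1 in R 4.3.3 (eBayes with trend, all 8 libraries in 1 fit, two-sided), Benjamini-Hochberg adjustment over all genes and a threshold of 0.05. Shares of inducible subunits were compared with exact permutation tests. The fit was tested on data simulated with the same spread in every group and no outlying library, which does not cover the unequal scatter of these libraries. Exon overlaps came from the annotation, and 30 processed pseudogenes named like the family could take or give reads.

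Members, roles, lists and tests were chosen with earlier results of these data known. All members are accounted for. Given in full are catalytic subunits, activators, the inhibitor, untested genes and, per role group and comparison, up to 3 called genes with the largest rise and fall. From each list up to 3 called genes with the largest change are named, with POMP, NFE2L1, NFE2L2 and PSMB8-AS1. Other genes are named where a count of few genes is given, after their values were seen.

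No libraries agreed within sampling noise (chi-square per degree of freedom 2.69 to 69.3). Alternatives changed the pseudocount, filter, scaling, fit, weights, block, threshold and libraries. Removing GC and length trends without M14A plate library 1 was added after seeing the data. Protein sequences were not used here. Some genes of the ubiquitin list are not reported here, and its counts leave them out.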

Additional observations from a re-analysis of the deposited data

How the results depend on the processing

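Both calls between M14A plate and HepaRG plate cells, PSMB6 and PSMA4, held in all 25 alternatives. In that comparison, proteasome genes called higher numbered 2 with median-ratio scaling, 2 with quantile normalization, 5 with equal totals without mitochondrially encoded genes, 3 with GC and length trends removed and 3 when M14A plate library 1 was also left out, and 1 to 3 when leaving out each library. The numbers lower were 2 with a pseudocount of 0.01, without a filter, without the eBayes trend and with a replicate block, 3 with quantile normalization and with voom, 6 with equal totals, 4 without mitochondrially encoded genes, 7 with GC and length trends removed, 6 with these trends removed and the block added, and 12 with them removed and M14A plate library 1 left out, and 1 to 5 when leaving out each library. The family's median in that comparison was -0.10 (quantile), -0.11 (equal totals), -0.0654 (without mitochondrially encoded genes), -0.0249 (GC and length, with or without block) and -0.0549 (GC and length, M14A plate library 1 left out), and -0.0486 to 0.10 when leaving out each library. Over all genes 1393 rose and 948 fell with a filter at 5 FPKM, 1460 and 1084 at a threshold of 0.01, 3362 fell with equal totals, 3266 with GC and length trends removed and 3967 with them removed and M14A plate library 1 left out, and leaving out each library gave 1567 to 2912 higher and 1252 to 3220 lower. On recovered reads, not per length, the PSMB9 share differed by -12.7 percentage points.

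Between M14A printed and M14A plate cells the proteasome genes higher numbered 15 with quantile normalization, 4 with equal totals, 10 without mitochondrially encoded genes, 7 with the compared groups alone in the fit, 12 at a threshold of 0.01 and 7 to 34 when leaving out each library. Those lower numbered 1 with quantile normalization, 14 with equal totals, 7 without mitochondrially encoded genes, 1 with GC and length trends removed, 1 with the block added, 1 also without M14A plate library 1, and 0 to 2 when leaving out each library. The median was 0.63 and 0.64 with pseudocounts of 0.1 and 0.01, 0.64 with voom, 0.23 with quantile normalization, -0.12 with equal totals and 0.0376 without mitochondrially encoded genes. Over all genes, higher and lower counts were 495 and 6620 with equal totals, 826 and 5363 without mitochondrially encoded genes, 1062 and 954 with the compared groups alone, 1265 and 1103 at 0.01, 4466 and 3810 with GC and length trends removed and M14A plate library 1 left out, 1260 lower with a filter at 5 FPKM, and 1202 to 4045 and 1228 to 3866 when leaving out each library. With equal totals the log2 fold changes of CALCOCO2 (-0.0758), GABARAPL1 (-0.0631), MAP1LC3B (-0.17), OPTN (-0.16), PDIA3 (-0.23), PSMA3 (-0.11), PSMA5 (-0.16), PSMB1 (-0.0737), PSMC1 (-0.17), PSMD13 (-0.0755) and PSMG4 (-0.0698) changed sign. Without mitochondrially encoded genes MAP1LC3B (-0.00251), PDIA3 (-0.0475) and PSMC1 (-0.0116) did, and under quantile normalization PDIA3 (-0.0873) and PSMA7 (-0.0207). The cause of these changes was not tested.

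Replicate numbers were not treated as pairs in the fit used here. Between the plate groups, deviations of same-numbered libraries correlated at -0.071, 0.081 and -0.155, and those of differently numbered ones at -0.099 to 0.157. Between the M14A groups same-numbered ones correlated at 0.487 and 0.365, and differently numbered ones at -0.365, -0.433, -0.487 and 0.433. Deviations of 2 printed libraries mirror each other, so these values cannot settle whether the numbers pair the M14A samples. With a replicate block the proteasome genes higher and lower were 23 and 0 in M14A printed cells, and 1 and 2 in M14A plate against HepaRG plate cells. With 2 printed libraries their spread is taken largely from the other groups. The shares of inducible subunits cannot reach p below 0.05 at these group sizes. The way printed cells were collected goes with printing and cannot be told apart from it here. The deposited FPKM totals also went with printing. How far the scaling moved the results is given above, and which scaling is right was not tested.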
